A study of Homo sapiens with 2 samples.

Results

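The centromere of chromosome 4 gave 848 peaks of the telomere protein TRF2 over input in HCT116 cells, a colorectal carcinoma line. They were all listed peaks on chromosome 4 whose summit, the base of highest signal, lay in the cytogenetic centromere bands p11 and q11 of the assembly hg38, from 48200001 to 51800000. They made up 3.50% (exact Clopper-Pearson 95% interval 3.27% to 3.73%) of the authors' list of 24258 peaks, and 77.6% of the 1093 peaks of chromosome 4. The list compared 1 library immunoprecipitated with an anti-TRF2 antibody (5 μg per 100 μg of chromatin) with 1 input library made without antibody. Both came from HCT116 cells fixed in 1% formaldehyde 72 h after plating, with no treatment named in the labels. The name of the peak list mentions a control siRNA that the labels do not, so a transfection cannot be told from the sources. With 1 library in each group there was no test between samples. All values below describe this list, and intervals cover counting error only. Neighbouring peaks share repeats and possibly reads, so they are not independent.

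TRF2, encoded by TERF2, is a subunit of shelterin, the complex that coats the double-stranded TTAGGG repeats of chromosome ends and keeps them from being treated as broken DNA. It has also been found at telomere-like repeats inside chromosomes and at satellite repeats. Human centromeres are built on alpha satellite, a tandem repeat on which the kinetochore assembles, and are flanked by other satellites and by duplicated sequence. In hg38 the centromeric arrays are models built from reads, not an assembled sequence, so a position within them stands for a type of repeat copy and not for a surveyed place. The handling of reads that map to more than one repeat copy is not stated by the labels or the file. The bases under the peaks were not analysed here.

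The peaks fell into a few deep, crowded stretches in p11 and a long, shallow stretch that ran through the rest of the bands. Where neighbouring summits lay more than 50 kb apart the series of peaks was divided, which gave 6 runs. The first held 126 peaks between 49091246 and 49156585, and the fifth held 57 peaks between 49631336 and 49658048. Between these 2 deep runs lay 8 peaks from 49240432 to 49254126, 1 peak at 49313433 to 49313502 and 5 peaks from 49511037 to 49554350. The last run held 651 peaks from 49708270 to 51737950 and thus 76.8% of the members. The division was chosen after the positions had been seen, and the gaps between runs were 197.6, 84.0, 77.1, 59.4 and 50.7 kb, against a largest gap of 25.2 kb inside a run.

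**Figure D1:**
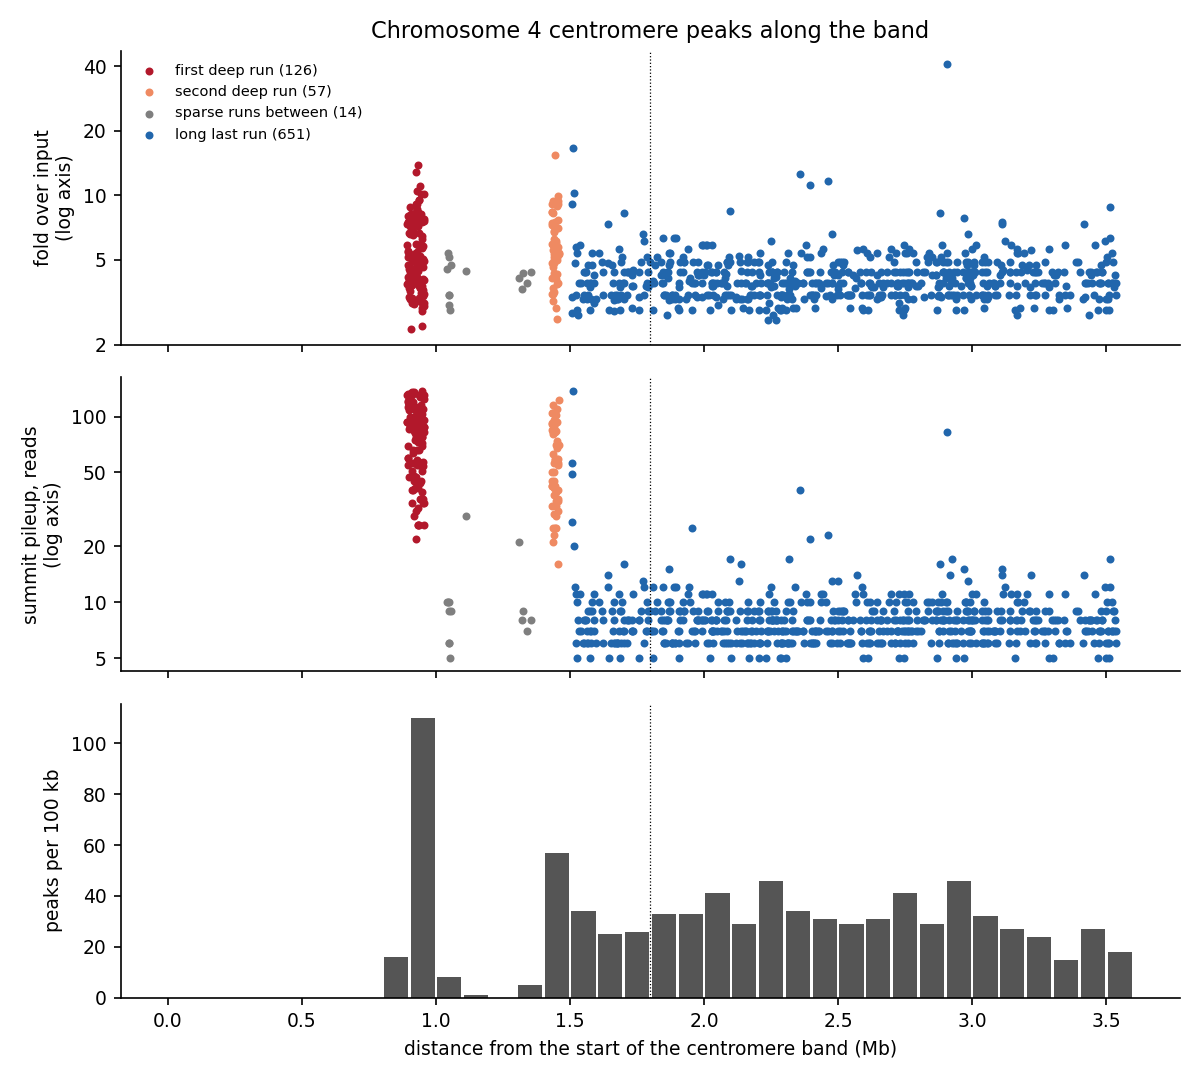
Fold over input (top, log axis), immunoprecipitated reads at the summit (middle, log axis) and peaks per 100 kb (bottom) for the 848 peaks, against distance from the start of the band in Mb; points are peaks, colours are the runs, and the dotted line is the border of p11 and q11. The 2 deep runs reach pileups of 138 and 123 reads, while the long last run stays near 8 reads apart from a few peaks, of which the strongest has a fold of 40.98.

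The first 891 kb of the band, up to the first member at 49091246, held no peak. The stretch was bounded by the first member, so its count of 0 follows from that choice and was not tested. All 8 protein-coding genes that meet the band lie in this stretch, TEC starting before the band. None of them had a summit in its span or within 3 kb. They are TEC, a tyrosine kinase gene, SLAIN2, a microtubule regulator gene, SLC10A4, a solute carrier gene, ZAR1, an oocyte gene, FRYL, OCIAD1, OCIAD2 and CWH43. CWH43 (48986275 to 49062079) was the closest of them to a peak, at 29.3 kb. The last peak before the band was 1435 kb from its edge, at 46764551 to 46764619, with 5 reads and a fold of 2.93. On the other side the last member, at 51737820 to 51737950 (7 reads, fold 3.90), lay 62.1 kb inside the band, and the next peak of the chromosome was 2288 kb beyond it, at 54088404 to 54088472 (5 reads, fold 2.89). Density was 236 peaks per Mb within the band (exact Poisson 95% interval 220 to 252) and 1.31 per Mb (1.15 to 1.49) on the rest of chromosome 4.

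Few peaks lay at annotated genes. Of the 27 annotated genes that meet the band, 15 are pseudogenes, and only 2 genes had a summit within their span, both pseudogenes in the sparse part between the deep runs. LOC124900699 (49239198 to 49244484) carried 2 summits, the higher with a fold of 5.37. LOC107986214 (49516046 to 49524753) carried 1, with a fold of 3.63 and 8 reads. MTCO3P39 and MTND3P22, nuclear copies of mitochondrial genes that lie side by side, had the same closest summit, 517 bp and 140 bp away, with a fold of 3.41 and 6 reads. The long non-coding RNA gene LOC101927209 (49161270 to 49208235) began 4.79 kb beyond the last summit of the first deep run, where 125 reads gave a fold of 7.76, and had none inside. In all 7 members (0.825%) lay in or within 3 kb of a gene. The last annotated gene of the band ended at 49589728, before the second deep run and the long last run. With no gene annotated there, no member of those runs could lie at one, and the last run alone held 76.8% of the members.

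Fold, depth and input background have to be read together in these runs. The fold is the authors' value, the immunoprecipitated reads piled up at the summit plus 1 over the input background plus 1, the background being the reads expected from the input on the scale of the immunoprecipitated library. Both terms were solved from that fold and the authors' p-value. The background cannot fall below a floor of 1.05, its genome-wide value. Over all members the median fold was 4.11 (range 2.37 to 40.98), the median pileup 8 reads (5 to 138) and the median background 1.05 (1.05 to 55.8). A −log10 q of 5 or more, called strong below, was reached by 222 members, or 26.2% (23.2% to 29.3%), against 30.0% of the whole list. The members as a whole thus lay a little below the list in this share.

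The strong peaks were concentrated in the 2 deep runs. Of the 222 strong members 177 (79.7%) lay there, on 65.3 kb and 26.7 kb of sequence. In the first deep run 123 of 126 peaks were strong, in the second 54 of 57. The 6 others had 16 to 29 reads and −log10 q values of 3.02 to 4.71. Peaks crowded these stretches, with a median of 446 bp between neighbouring summits in the first and 410 bp in the second, and together they covered 62.5% and 57.9% of the bases. No 2 member intervals overlapped.

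Depth in the deep runs was high in both libraries. The median pileup was 87.5 reads (22 to 138) in the first deep run and 58 reads (16 to 123) in the second. The input background had medians of 11.8 (4.61 to 55.8) and 7.71 (3.38 to 41.2), so no peak of either run was at the floor. The median fold was 4.97 (exact binomial interval of the median 4.53 to 5.46, range 2.37 to 13.8) in the first and 5.39 (5.10 to 5.92, range 2.63 to 15.4) in the second. The pileups of the runs overlapped over most of their range, and so did the folds.

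Among the listed peaks of each deep run the immunoprecipitated reads rose with the input. A peak over more input needs more reads to be listed, so part of this rise follows from the calling. Spearman's rho between pileup and background was 0.81 over the 126 peaks of the first and 0.78 over the 57 of the second, as a description of peaks from the same 2 libraries. Fold and background, which share the background as a term, had rho of −0.49 and −0.46. In the first deep run the 63 peaks with a background above its median had 110 reads and a fold of 4.36 at the median, and the 63 others 58 reads and a fold of 6.28. The 12 members with at least 130 reads had nearly the same pileup, at most 138, so their folds follow from their backgrounds by definition. All but 1 of them lay in the first deep run, where a background of 30.5 to 55.8 left a fold of only 2.37 to 4.20. The most reads of any member, 138, were at 49149337 to 49149862, with a background of 47.4 and a fold of 2.87. The next deepest of this run, at 49110355 to 49110976, had 136 reads and a fold of 3.12. The widest member, 2974 bp from 49118329 to 49121302, had 135 reads over a background of 42.9 (fold 3.10). The largest pileup of the whole list is also 138 reads, which is 2 times its smallest peak width of 69 bp. A caller that keeps 1 read per position and strand would hold down pileup and fold at such depth. Whether that was done is not stated by the labels or the file.

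**Figure D2:**
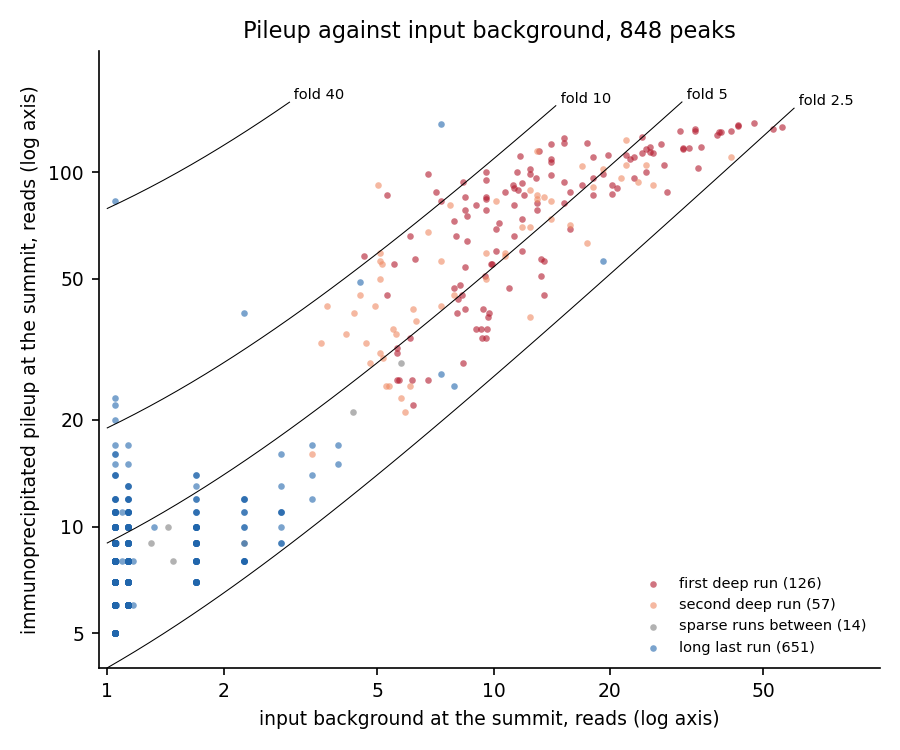
Immunoprecipitated reads against input background at the summit (both log axes, reads) for the 848 peaks, coloured by run, with lines of equal fold at 2.5, 5, 10 and 40. In the deep runs the called peaks with more input also have more reads, up to 138, in part because calling demands it. Peaks of the long last run stack up at the background floor. The strongest peak stands alone at 83 reads over a background of 1.05.

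The highest folds of the deep runs came from peaks with a low background for their run. This is in part given, since the fold is a ratio over that background. Fold reached 10 or more at 13 members (1.53%, against 1.96% of the whole list), 6 of them in the first deep run and 1 in the second. Those 6 had backgrounds of 4.61 to 8.33, below the run's median of 11.8, and a median of 87 reads, close to the run's 87.5. The 1 in the second, at 49642257 to 49642995, had 92 reads over a background of 5.03 and a fold of 15.4. In the first deep run the peak at 49132242 to 49132668 had 86 reads over 5.30 and a fold of 13.8, and the peak at 49124454 to 49124877 had 99 reads over 6.77 and a fold of 12.9. The others of its highest-ranked peaks were at 49138955 to 49139068 (88 reads, fold 11.004) and 49128451 to 49129282 (58 reads, fold 10.5). The third widest member, 1127 bp from 49105389 to 49106515, had 115 reads over 13.1 (fold 8.21). Along the first deep run depth and fold were uneven: in its 13 whole steps of 5 kb the median pileup went from 60 to 114 reads and the median fold from 3.90 to 7.28. The steps with the most reads were not those with the highest folds. The step 15 kb from its start had a median of 114 reads at a fold of 4.18, and that at 30 kb had 82 reads at a fold of 7.28.

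The long last run opened with 4 peaks that resembled the deep runs. They lay in 3.68 kb, from 49708270 to 49711947, and had 49, 27, 56 and 137 reads. Their folds were 9.07, 3.36, 2.82 and 16.6. The last of them, from 49709094 to 49711947, was 2854 bp wide, the second widest member and the second highest in fold, over a background of 7.33. After it came 2615 bp without a peak, and from there on the peaks were shallow. The next, at 49714563 to 49714642, had 20 reads over the floor and a fold of 10.2.

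The other 647 peaks of the long last run, up to 51737950, were low. Their median pileup was 8 reads and their median fold 3.90. Pileups of 6, 7, 8 and 9 reads were found at 128, 148, 137 and 83 peaks, together 76.7% of them. Only 6 peaks had 20 or more reads. The input background was at its floor at 417 of them (64.5%, exact interval 60.6% to 68.1%), where each read count gives a fixed fold: 3.41 at 6 reads, 3.90 at 7, 4.39 at 8 and 4.88 at 9. A q-value under 0.05 was reached by 450 (69.6%, 65.8% to 73.1%), against 79.3% of the whole list, and 40 (6.18%, 4.45% to 8.32%) were strong, against 30.0% of the list. Median width was 100 bp, and the peaks covered 3.64% of the stretch.

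Along this stretch counts varied while the level hardly did. In the 19 windows of 100 kb that it fills, the number of peaks ran from 15 to 46 with a median of 31. The median pileup of a window was between 7 and 8 reads and the median fold between 3.90 and 4.39. No window had more than 4 strong peaks. The fullest windows of this stretch, with 46 peaks each, were those from 50400001 and from 51100001, and the next had 41, from 50200001 and from 50900001. The strongest peak of the first of these was at 50450977 to 50451151 (12 reads, fold 6.11), and that of the window from 50200001 was at 50296282 to 50296378 (17 reads, fold 8.46). The window from 51100001 held the peak of highest fold in the list, described below. By their medians, of 8 reads or fewer, the crowded windows were no deeper than the others.

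Peaks at the background floor can be compared by reads, since the background used for the fold is the same for each. The local input at each was at or below that floor and may differ between them. The 417 floor peaks of this stretch had a median of 7 reads (6 to 8 between the quartiles), as had the 6721 floor peaks of the rest of the list. The 2672 floor peaks of other centromere bands had a median of 8 (7 to 9). Strong peaks made up 6.71% (4.51% to 9.56%) of the first, 9.60% (8.90% to 10.3%) of the second and 11.6% (10.4% to 12.8%) of the third. By this measure the shallow stretch of chromosome 4 was no deeper than the floor peaks elsewhere in the list. A level this close to the lower limit of the list, 5 reads, leaves weaker signal undetectable.

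**Figure D3:**
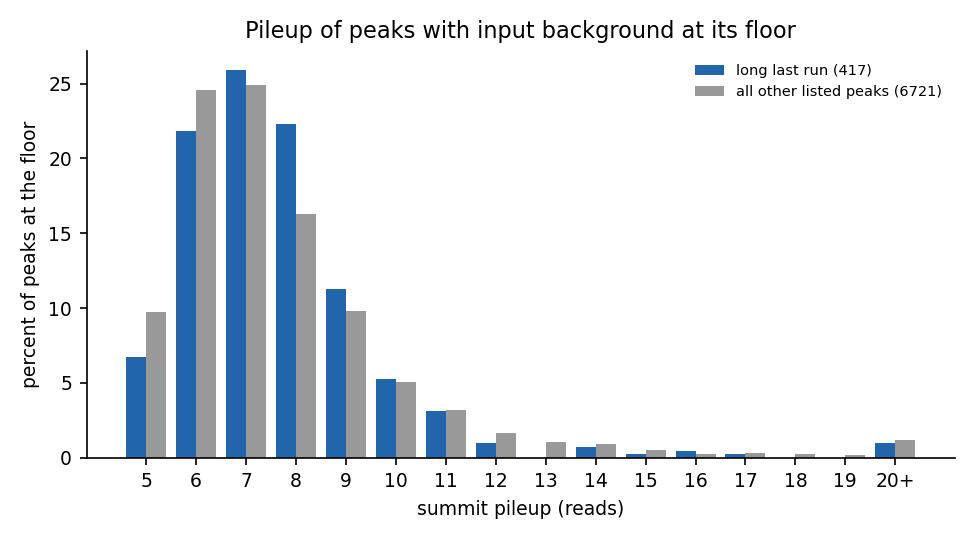
Share of peaks (percent) by reads at the summit, for peaks with input background at its floor: blue, the 417 of the long last run after its first 4 peaks; grey, the 6721 of the rest of the list. Both sets have a median of 7 reads and few peaks of 20 reads or more.

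The peak of highest fold in the entire list stood in this shallow stretch. It ran from 51107171 to 51107579 in q11, 409 bp wide, with 83 reads over the background floor, a fold of 40.98 and a −log10 q of 119. No gene is annotated in that part of the band. Within 50 kb on either side there were 40 other members, with 5 to 17 reads (median 8) and folds of 2.93 to 8.29. The closest, 2165 bp and 2218 bp away, had 10 and 6 reads. Its fold was 3.25 times that of the next peak of the stretch. It is the deepest floor peak of the list, the next of them having 74 reads. A fold of 20 or more was found at 28 listed peaks, this one included. The centromere bands of chromosomes 8 and 17 reached folds of 36.8 and 34.0. The highest −log10 q of the list, 127, was in the band of chromosome 8.

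**Figure D4:**
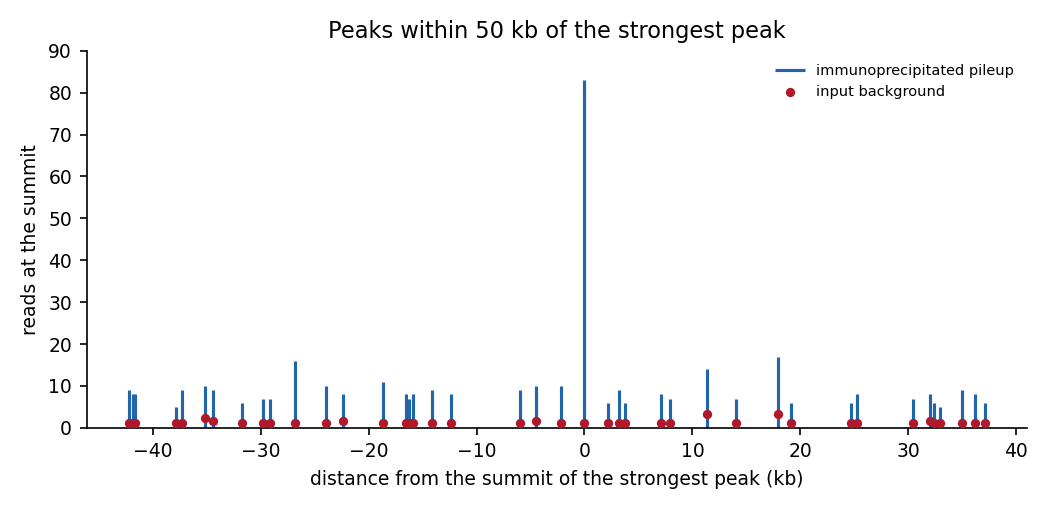
Immunoprecipitated reads (blue lines) and input background (red points) at the summits of members within 50 kb of the strongest peak, against distance from its summit in kb. The strongest peak has 83 reads and the 40 others 5 to 17, over a background that is at the floor of 1.05 at 27 of the 40.

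Beyond it, 4 peaks of the stretch had a fold of 10 or more, the one at 49714563 among them. The other 3 lay within 106 kb of each other. The peak at 50556093 to 50556208 had 40 reads over a background of 2.26 and a fold of 12.6, that at 50596491 to 50596663 had 22 reads over the floor and a fold of 11.2, and that at 50662303 to 50662392 had 23 reads over the floor and a fold of 11.7. The distances between their summits were 40.4 and 65.8 kb. Each was at most 173 bp wide. They were separated by ordinary peaks of the stretch and formed no crowded block like those in p11.

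The 2 bands therefore differed in depth more than in number. Of the members 566 (66.7%, 63.5% to 69.9%) lay in q11 and 282 in p11. Median pileup was 45 reads in p11 and 8 in q11, and strong peaks were 188 of 282 (66.7%) against 34 of 566 (6.01%). Among strong members only 15.3% lay in q11, and of covered bases 47.6%.

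Spacing between the peaks was only weakly aligned to any repeat length scanned. Over all pairs of summits up to 5 kb apart, 2744 pairs, periods from 100 to 400 bp were scanned. Alignment, which is 1 when every distance is a multiple of the period and 0 when distances are spread evenly, was at most 0.056, at 247.5 bp. The same period led among strong members alone and among those with a q-value under 0.05, while with pairs up to 2 kb apart 194 bp led. At 171 bp, the usual length of an alpha satellite unit, alignment was 0.0041 over all 2744 pairs. The last run gave only 1090 of these pairs, and no value at 171 bp is given here for any run alone. The leading period was 105 bp in the first deep run, 189 bp in the second and 197.5 bp in the last run. Alignments were 0.072, 0.11 and 0.072, over 1124, 516 and 1090 pairs. With fewer pairs the largest alignment of a scan tends to be higher without any true period, so these are not set against 0.056. The bands of chromosomes 7 and 20 led at 156.5 and 100 bp, with alignments of 0.056 and 0.046. For chromosome 20 this is the lower edge of the scan, so it locates no period.

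Other centromeres were set beside chromosome 4 to place its depth. The bands of chromosomes 7 and 20, chosen for comparison with earlier results known, had 874 and 1143 peaks. Peak density was 236 per Mb on chromosome 4, 219 (204 to 233) on chromosome 7, 243 (229 to 258) on chromosome 20 and 161 (158 to 163) over all 23 other chromosomes together, these 2 included. Median fold was 4.11, 4.09, 3.97 and 4.17 in the same order. Median pileup was 8, 10, 11 and 12 reads. By fold the 4 sets were close to each other. The median of 8 reads was the lowest of any band and was shared by chromosomes 2, 11, 12, 14, 15, 18 and 19, while chromosomes 1 and 13, with the most peaks, had medians of 27 and 17 reads.

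Deep peaks, by contrast, were unequally shared. A pileup of 100 or more reads, a limit chosen after the depths had been seen, was found at 50 members (5.90%, 4.41% to 7.70%). Of these, 49 lay in the 2 deep runs. Over the whole list it was found at 412 peaks (1.70%, 1.54% to 1.87%), most of them outside the centromere bands. Chromosomes 7 and 20 had 2 such peaks each. All other centromere bands together had 36 (0.251%, 0.176% to 0.347%), 11 of them on chromosome 17 and 10 on chromosome 5. Chromosome 4 thus held 50 of the 86 deep peaks of centromere bands (58.1%, 47.0% to 68.7%), and 12.1% of the 412 of the whole list. At a limit of 80 or of 120 reads its share of the centromeric deep peaks was 58.2% and 58.8%. All of them come from 1 pair of libraries, so no test of the difference was made.

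The share of peaks at the background floor was 49.9% (46.5% to 53.3%) on chromosome 4, against 10.98% (8.99% to 13.2%) on chromosome 7 and 11.99% (10.2% to 14.0%) on chromosome 20. This share varied widely between centromeres. Chromosome 4 ranked 4 among the 23 bands with a peak, behind chromosomes 19 (61.4%), 2 (52.7%) and 15 (52.6%). Without the 2 deep runs it was 63.6%.

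**Figure D5:**
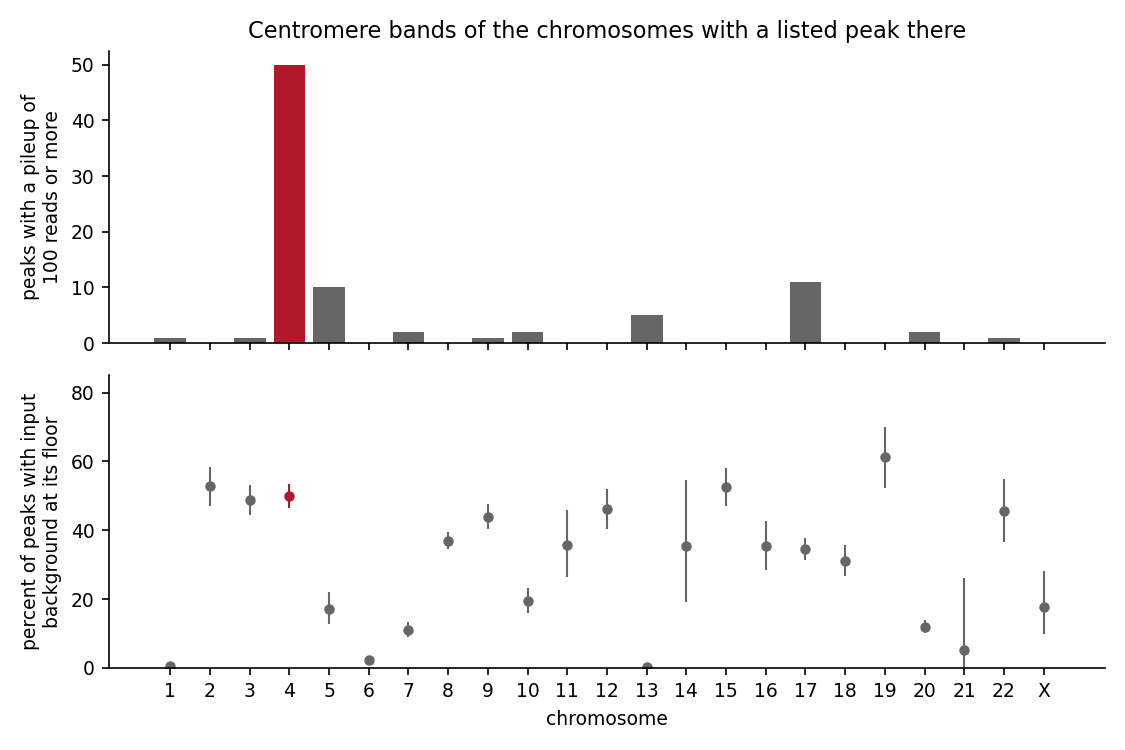
Number of peaks with a pileup of 100 reads or more (top) and percent of peaks with input background at its floor, with exact 95% binomial intervals (bottom), in the centromere bands of the 23 chromosomes that had a peak there; chromosome 4 is red. Chromosome 4 has 50 deep peaks, against 11 on the next, and 49.9% of its peaks are at the floor.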

How the data were processed

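Anti-TRF2 chromatin immunoprecipitation was compared with input, 1 HCT116 library each. The submitters' processing notes name MACS2 2.1.0, Bowtie2 2.3.2, ChIPseeker 1.36.0 and HOMER, with the builds hg38 and GRCh38. Their settings are not stated there. The deposited list gives per peak the authors' fold (a ratio at the summit), −log10 p-value, −log10 q-value and a score of 10 times the −log10 p, cut to a whole number. No −log10 p was below 3.01.

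From these the whole-number pileup and the input background were solved, taking MACS2's fold and upper Poisson tail; 100% of listed peaks matched within 0.001 on −log10 p. In 1845 peaks simulated from this list the pileup was recovered in 100%. These were built with the same formulas, so this checks the solving and not whether the formulas apply. Library totals are not known, so depth is given as reads at the summit. Bands came from circlize 0.4.16 (R 4.3.3) and genes from RefSeq GRCh38.p14. Tables and intervals were computed with pandas 2.3.3, scipy 1.17.1 and numpy 2.4.6 under Python 3.11.15, and plots with matplotlib 3.10.9. Intervals are exact at 95%. Positions are 1-based.

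Named peaks were the 10 of highest fold, the 3 of highest pileup, the 3 widest and the strongest of each of the 5 fullest windows; others were picked out after their values were seen. Named genes were the protein-coding genes of the band and those with a summit; the other non-coding genes named were picked for nearness. Members and comparisons were chosen with earlier results of these data known. Sequence features of the peaks were not analysed here, since no genome was used.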

Additional observations from a re-analysis of the deposited data

How the results depend on the processing

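Of 42 alternatives to 14 results, 16 counted as unchanged. They stayed within the interval of the value given, within 1.5 times a count or, for the leading period, within 1 bp. Restriction to strong peaks (−log10 q at least 5) changed the picture most, since it leaves mainly the 2 deep runs: 222 peaks, 3.05% of the list, median fold 5.82, median pileup 66 reads, median background 9.59, 61.7 peaks per Mb, 15.3% in q11, 82.0% in the fullest 10% of the 100 kb windows, rounded up to whole windows (30.5% with all peaks) and 528 bp between summits (1381 bp with all). A fold of 5 or more left 193 peaks (22.8%, against 25.2% of the whole list). A q-value under 0.05 left 647 (76.3%, against 79.3% of the whole list). These 647 had a median fold of 4.39, a background of 1.13, 180 peaks per Mb, 61.4% in q11 and 1641 bp between summits. Of peaks on primary chromosomes the members were 3.81%. From first to last summit the density was 320 per Mb. Of covered bases 47.6% lay in q11. Windows of 200 kb gave 25.6% in the fullest 10%. With only the strongest peak of each group of summits within 1 kb, 500 peaks, spacing was 3276 bp and the strong share 10.6%. That share was 20.05% at a −log10 q of 10 or more and 6.77% without the deep runs. The leading period stayed at 247.5 bp for strong peaks and for a q-value under 0.05 and was 194 bp with pairs up to 2 kb. The share at the floor was 63.6% without the deep runs. Dividing at gaps of over 100 kb gave 2 runs and at over 40 kb again 6. Alternatives on runs, deep peaks, the floor and without deep runs were added after seeing the data. The search of peak sequences was not run. No paired analysis was possible because each group has 1 library and the list comes from no test between samples. Depth limits the long last run, where most peaks have 6 to 9 reads.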
